A study of Mus musculus with 9 samples.

Results

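The 100 genes described here were those with the highest expression in retinas that had received non-occlusive laser treatment, relative both to untreated retinas and to retinas with laser-induced retinal vein occlusion (RVO). Counts of each sample were divided by the sample total and expressed as counts per 1000000 counts (CPM). Genes with a mean of at least 20 counts in the 3 control samples were kept, which left 15195 of the 48587 gene names listed. For each gene 0.5 CPM was added to the group means, the log2 ratios of control to untreated and of control to RVO were formed, and the smaller of both was the score. The 100 highest scores, from 0.746 to 2.33, made up the group. It held 12 genes of endothelium and the vessel wall, 27 of neurons and synapses, 5 of glia and the Notch pathway, 4 of the extracellular matrix, 4 of immune cells and platelets and 48 with other or no assigned roles. Because these genes were chosen by their CPM in all 3 groups, their differences between the groups are given as a description. Calls of the fits across all genes are counted for them without reading anything from these counts.

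RNA was sequenced from 9 pools, each of 6 retinas of C57BL/6J mice 12 weeks old. All laser-treated mice were anesthetized with ketamine and xylazine and received eosin Y intraperitoneally as a photosensitizer. On day 2 after laser, 3 pools came from eyes in which all large veins had been occluded by the laser (RVO). The 3 control pools came from the fellow eyes, where the same number of laser spots was placed between the large vessels. The paper reports that veins re-opened over the following days, so that some may have been open at sampling. The 3 untreated pools came from eyes labelled as untreated. Control retinas thus had eosin Y, laser burns and a partner eye with occluded veins, so these could not be told apart in the comparison with untreated retinas. Each pool mixed mice, so that the spread between pools does not show the spread between animals, and whether RVO and control pools of the same number held eyes of the same mice was not given in the sources used here.

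Retinal endothelium forms the inner blood-retinal barrier, with tight junctions, adhesion molecules and transporters that keep the neural tissue separated from blood. Laser burns injure photoreceptors and pigment epithelium at the spot, whereas occlusion of a vein stops the blood flow from the inner retina, where bipolar, amacrine and ganglion cells lie. In bulk tissue, a loss of cells of a type and a lower RNA level per cell cannot be told apart.

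Total counts were between 21022997 and 28993921 in RVO, between 18897218 and 23419497 in control and between 12377572 and 15245869 in untreated pools. The untreated pools were thus the shallowest, which makes the untreated values of low genes the least precise. Rod markers were abundant in all 9 pools, with a summed level between 54724 and 88226 CPM, and the label of retina was thus met by these markers. RVO replicate 2 stood apart from the other RVO pools. Relative to the mean of the untreated pools, the summed level of 9 amacrine markers outside the 100 genes was 0.322, 0.60 and 0.376 in RVO replicates 1 to 3, 0.852 to 0.897 in control pools and 0.966 to 1.02 in untreated pools. The summed level of 18 lens genes, relative to the same mean, was 418 in RVO replicate 2, 197 in control replicate 1 and between 0.306 and 39.1 in the other pools. Whether the lens material played a part in the differences of the 100 genes was not tested.

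Of the 100 genes, 91 had all 3 control values above all 6 RVO and untreated values, as had 8.68% of the genes kept. The 9 others were Eln, Gm12185, Cyyr1, Cfi, Slc52a3, Endou, Selp, Dlx3 and Iigp1. The choice of genes favours such a separation, here and in the groups by role below. The median fold of control over untreated was 2.20 and that of control over RVO 2.06, with a range of the latter from 1.68 to 7.88. The score was set by the ratio to untreated in 36 genes and by the ratio to RVO in 64. Serpine3 stood alone with a score of 2.33, Slc38a5 followed with 1.52, the median was 0.88 and 19 genes had a score above 1. The limit fell into a dense range. The last genes inside were Csmd2, Stk32c and E130218I03Rik with scores of 0.751, 0.746 and 0.746, and the first outside were Sema3g, Smoc2 and Baiap3 with 0.746, 0.741 and 0.738.

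**Figure D1:**
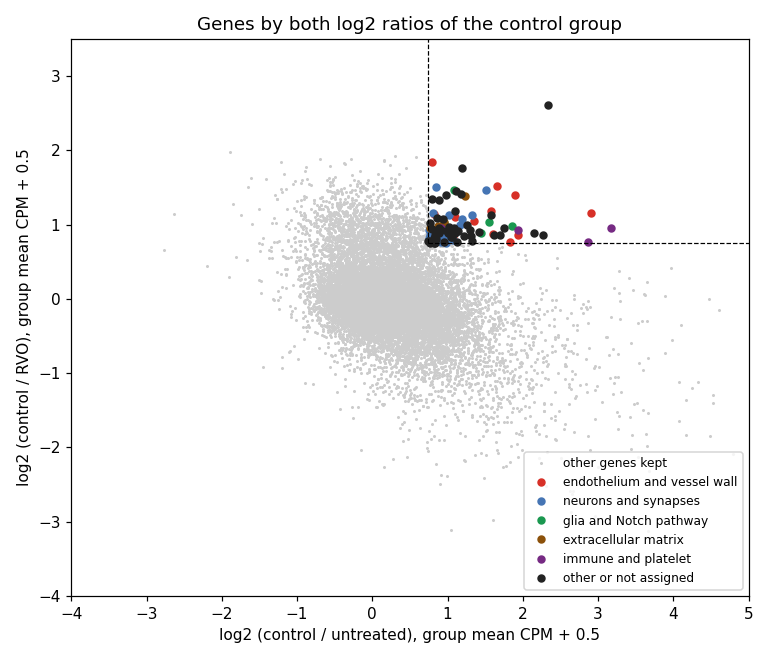
Log2 ratio of control to untreated (x axis) and of control to RVO (y axis), each from group mean CPM plus 0.5, for the 15195 genes kept. The 100 genes are coloured by role and lie beyond both dashed lines at 0.746, Serpine3 lies apart at the top right, and 14 genes fall outside the axes.

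Serpine3 encodes a member of the serine protease inhibitor family. It was listed at 1.83, 3.56 and 2.14 CPM in RVO, at 21.5, 15.6 and 16.4 CPM in control and at 3.31, 3.04 and 3.08 CPM in untreated pools. Control pools were far above the others, while RVO and untreated pools overlapped, with RVO replicate 2 the highest of its group. The group means were 17.8 ± 3.23 CPM in control and 2.51 ± 0.925 CPM in RVO (SD, n = 3). The log2 difference estimated with edgeR was 2.33 ± 0.16 (SE) for control over untreated and -2.88 ± 0.27 for RVO over control. The gene lies at chr14:62663667-62692243 (GRCm38, plus strand) and overlaps Ints6 on the other strand. As the strand setting of the counting was not given in the sources used here, reads of both genes may not be separated.

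Promoters are shown for 5 of the 100 genes. They are the highest-scoring gene, a transporter and a junction gene of endothelium, a glial gene and a gene near 0 in untreated pools. RefSeq promoters (build GRCm38.p6, 250 bases before to 50 after the start) were found for 67 of the 100 genes. Both strands were searched for TTCNNNGAA (named for STAT factors), a repeat of GAAA with 2 bases of any kind between both copies (the core of the interferon-stimulated response element), ACGTG (hypoxia response), TGANTCA (activator protein complexes of Fos and Jun), TGACGTCA (cyclic AMP response), GGGCGG (Sp factors) and TATAAA (start site). The others were CCAAT (nuclear factor Y), CTAATCC (Crx and Otx2), CATTCC (Tead factors), CAGATG (proneural factors), CACGTG (Myc and related factors), GTCTAGAC (Smad factors) and GCGTGGGCG (early growth response factors), of which ACGTG lies within CACGTG. Capitals mark every match in the windows. They are at chr14:62663417-62663716 (plus strand) for Serpine3, chrX:8271131-8271430 (plus) for Slc38a5, chr16:18776597-18776896 (plus) for Cldn5, chr15:88978504-88978803 (minus) for Mlc1 and chr11:48927133-48927432 (minus) for Gm12185.
Serpine3: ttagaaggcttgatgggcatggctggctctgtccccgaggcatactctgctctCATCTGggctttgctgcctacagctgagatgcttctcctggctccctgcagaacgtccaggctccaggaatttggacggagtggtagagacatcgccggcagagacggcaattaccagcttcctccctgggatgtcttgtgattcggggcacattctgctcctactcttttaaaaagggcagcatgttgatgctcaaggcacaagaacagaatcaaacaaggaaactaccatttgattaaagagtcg
Slc38a5: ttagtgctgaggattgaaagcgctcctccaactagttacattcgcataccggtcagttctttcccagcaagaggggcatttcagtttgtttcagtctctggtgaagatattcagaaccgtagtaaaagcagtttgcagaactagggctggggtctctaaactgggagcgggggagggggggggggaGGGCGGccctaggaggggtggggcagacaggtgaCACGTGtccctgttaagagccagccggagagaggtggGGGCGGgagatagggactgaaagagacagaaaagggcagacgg
Cldn5: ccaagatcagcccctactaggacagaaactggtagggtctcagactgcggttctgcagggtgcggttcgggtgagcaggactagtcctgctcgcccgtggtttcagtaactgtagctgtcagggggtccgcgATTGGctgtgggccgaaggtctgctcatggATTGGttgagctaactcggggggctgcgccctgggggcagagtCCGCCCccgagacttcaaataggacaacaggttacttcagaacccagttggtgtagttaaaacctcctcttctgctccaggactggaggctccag
Mlc1: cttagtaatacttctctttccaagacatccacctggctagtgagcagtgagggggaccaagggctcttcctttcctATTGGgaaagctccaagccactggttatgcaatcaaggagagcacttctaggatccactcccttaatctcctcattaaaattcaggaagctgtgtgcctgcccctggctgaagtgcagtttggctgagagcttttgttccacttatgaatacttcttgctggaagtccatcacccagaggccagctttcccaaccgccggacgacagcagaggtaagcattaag
Gm12185: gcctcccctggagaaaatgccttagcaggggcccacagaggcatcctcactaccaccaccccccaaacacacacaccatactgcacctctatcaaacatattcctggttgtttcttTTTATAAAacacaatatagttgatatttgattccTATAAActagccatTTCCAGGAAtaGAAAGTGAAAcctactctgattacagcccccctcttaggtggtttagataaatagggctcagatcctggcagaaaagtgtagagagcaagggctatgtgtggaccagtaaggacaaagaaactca

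The Serpine3 window held CAGATG on the reverse strand only. The Slc38a5 window held GGGCGG at 2 places and CACGTG once, all in the printed direction. The Cldn5 window held GGGCGG once and CCAAT at 2 places, all on the reverse strand. The Mlc1 window held 1 CCAAT on the reverse strand. The Gm12185 window had no CpG and held TTCNNNGAA, the GAAA repeat and TATAAA. Some genes had several windows, and a gene was counted if any of its windows held the motif. Of the 67 genes, 52.2% held GGGCGG, compared with 67.4% of genes kept and 38.2% of all genes with a promoter. ACGTG was in 16.4%, compared with 28.4% and 21.8%. CCAAT was in 40.3%, compared with 42.6% of genes kept and 41.1% of all, and CAGATG in 19.4%, compared with 14.1% and 19.2%. TTCNNNGAA was in 7.46% and 9.55% and the GAAA repeat in 1.49% and 3.99% of the 67 and of all genes with a promoter. The other 8 motifs were each in at most 10.4% of the 67 genes and in 0.248% to 16.6% of all genes with a promoter. TGACGTCA, GTCTAGAC and GCGTGGGCG were in none of the 67. The median number of CpG per window was 13 for the 67 genes and 20 for the genes kept. These matches describe letters in the windows and were not tested for binding.

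Genes of endothelium and the vessel wall made up 12 of the 100. The roles were assigned from textbook knowledge after the genes were known. Control values were above all others in 10 of the 12, with a median fold of 3.20 over untreated and 2.38 over RVO. Slc38a5, a transporter of neutral amino acids, had 2, 40 and 2 counts in RVO, 45, 64 and 68 in control and 5, 9 and 9 in untreated pools. In CPM, control pools were between 2.10 and 3.39 and untreated pools between 0.40 and 0.64. RVO replicates 1 and 3 were thus below all untreated pools, whereas RVO replicate 2, with 1.78 CPM, was above them and below all control pools.

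Cldn5 encodes the main claudin of endothelial tight junctions. Its values were 3.00, 9.44 and 5.09 CPM in RVO, 13.5, 20.6 and 14.7 CPM in control and 3.07, 3.89 and 5.12 CPM in untreated pools. Control was 4.05-fold above untreated and 2.79-fold above RVO, and RVO overlapped with untreated. Esam, an adhesion molecule of endothelial junctions, was at 6.21, 12.8 and 8.47 CPM in RVO, 18.9, 21.5 and 19.98 CPM in control and 9.45, 7.91 and 10.1 CPM in untreated pools. Mean RVO and untreated levels of Esam were alike, with a ratio of 1.00, but the RVO pools spread around the untreated pools on both sides. Vwf, the carrier protein of coagulation factor VIII that binds platelets, was at 6.17, 17.7 and 9.66 CPM in RVO, 25.1, 28.4 and 22.7 CPM in control and 2.42, 3.603 and 2.82 CPM in untreated pools. Here all 3 groups were separated, with RVO 3.79-fold above untreated and control 8.62-fold above untreated.

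Ly6c1, a surface antigen of endothelial cells and of monocytes, had another order. Its values were 0.31, 4.32 and 1.47 CPM in RVO, 7.09, 10.7 and 7.94 CPM in control and 4.44, 4.87 and 4.85 CPM in untreated pools, so that all RVO pools were below all untreated pools. Ly6a, its close relative in the same gene family, was at 7.59, 12.9 and 10.6 CPM in RVO, 15.9, 25.6 and 16.7 CPM in control and 6.14, 6.57 and 5.44 CPM in untreated pools, so that RVO was above untreated. Reads of Ly6 genes may be shared between paralogs, and handling of such reads was not given in the sources used here. Selp, which encodes P-selectin of activated endothelium and platelets, had 0 counts in all untreated pools, 11, 19 and 9 counts in RVO and 13, 42 and 33 in control pools. Against a floor of 3 counts per untreated pool, Selp was at least 6.51-fold higher in control.

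The transcription factors Sox18 and Sox17, which act in the formation of vessels, had control levels of 3.68, 4.18 and 3.37 CPM and 2.47, 2.54 and 2.18 CPM. For Sox18, RVO was at 1.104, 2.09 and 1.47 CPM and untreated at 1.05, 1.41 and 1.05 CPM. For Sox17, RVO was at 0.655, 1.11 and 0.666 CPM and untreated at 1.05, 1.13 and 1.25 CPM. RVO and untreated overlapped in both genes, with a mean ratio of 1.33 for Sox18 and 0.711 for Sox17. Tie1, an endothelial receptor tyrosine kinase, was at 3.31, 4.77 and 4.33 CPM in RVO, 7.46, 7.303 and 7.47 CPM in control and 1.62, 1.55 and 2.03 CPM in untreated pools without overlap of any groups. Eln, which encodes elastin of the vessel wall, was at 4.104, 14.4 and 7.28 CPM in RVO, 13.3, 27.8 and 19.6 CPM in control and 6.22, 6.08 and 6.95 CPM in untreated pools. RVO replicate 2 of Eln was above control replicate 1. Cd34, an adhesion protein of endothelial and progenitor cells, was highest in all control pools, with 2.21-fold over untreated and 1.86-fold over RVO.

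**Figure D2:**
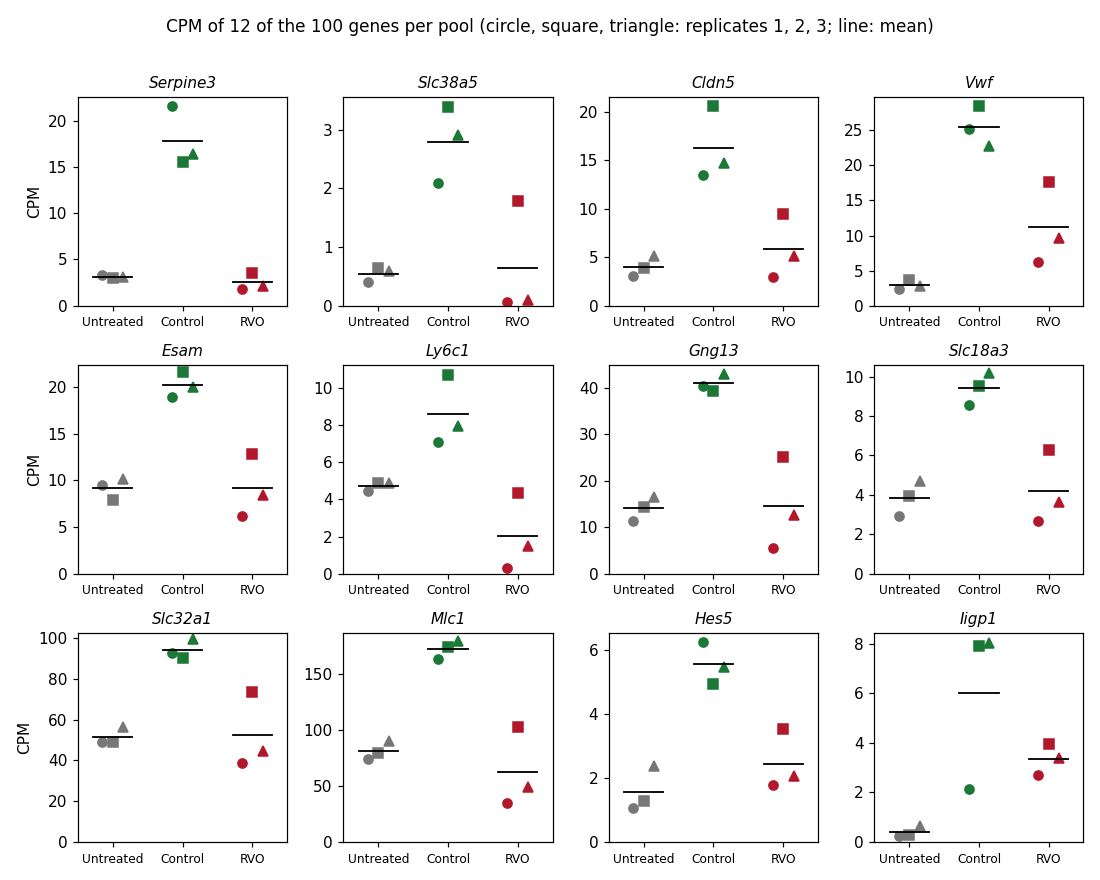
CPM (y axes, starting at 0) of 12 genes in the 9 pools, grouped as untreated, control and RVO, with replicates 1, 2 and 3 as circle, square and triangle and the group mean as a line. RVO replicate 2 is the highest RVO pool in all 12 panels, and control pools lie above all others except for Iigp1, where control replicate 1 is below RVO.

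In a list of 14 endothelial markers, 4 were among the 100 genes (Cldn5, Esam, Ly6c1 and Vwf). Of the other 10, 6 rose in control over untreated (edgeR, adjusted p under 0.01). In RVO compared with untreated, 5 of these 10 rose and 1 fell, compared with 27.4% and 24.6% of all genes tested. None of the 14 was called in RVO compared with control, the 4 among the 100 genes included, compared with 2.7% of all genes called higher and 0.634% called lower. At an unadjusted p under 0.05, 7 of the 14 were lower and 2 higher, and DESeq2 called 6 lower and 1 higher. With all 14 counted, 10 rose in control over untreated, compared with 27.2% of all genes tested. Cdh5, the cadherin of endothelial junctions, was at 10.6, 11.05 and 11.3 CPM in RVO, 10.4, 10.3 and 9.35 CPM in control and 2.83, 3.53 and 3.61 CPM in untreated pools. Cdh5 thus rose in both laser-treated groups, by 1.41 ± 0.14 in control and 1.503 ± 0.15 in RVO (log2, SE, edgeR adjusted p = 2.09e-06 and 8.66e-05). Plvap, Pecam1 and Egfl7 were likewise not lower in RVO than in control on average, whereas Kdr and Tek had the scores of rank 113 and 211. Slco1a4, a transporter of the blood-brain barrier, was at 15.3, 17.5 and 13.02 CPM in control and at 17.1, 16.7 and 12.4 CPM in untreated pools, and fell in RVO relative to untreated by 1.60 ± 0.42 (log2, SE, edgeR adjusted p = 0.00954). Of 10 markers of pericytes and smooth muscle, none was among the 100 genes, and 5 rose in control over untreated.

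Genes of neurons and synapses were the largest group with a named role, 27 of the 100. In all 27 the control pools were above all others (8.68% of the genes kept). RVO and untreated overlapped in CPM in all 27 (25.7% of the genes kept). The choice of genes favours both counts. In 9 of the 27, RVO replicates 1 and 3 were below all untreated pools (31.5% of the genes kept). RVO replicate 2 was above all untreated pools in all 27 (54.9% of the genes kept). The folds were smaller than those of the vessel genes, with medians of 1.95 over untreated and 1.84 over RVO. As the score adds 0.5 CPM and these folds do not, genes at low CPM needed a larger fold to be chosen. Its part in this difference was not tested. Gng13, a G protein subunit of ON bipolar cells, was at 5.59, 25.1 and 12.7 CPM in RVO, 40.4, 39.3 and 42.96 CPM in control and 11.3, 14.4 and 16.5 CPM in untreated pools. RVO replicate 1 was below and RVO replicate 2 above all untreated pools. Gng13 overlaps Chtf18 on the other strand.

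The vesicular transporters of acetylcholine and of the inhibitory transmitters, Slc18a3 and Slc32a1, are used by amacrine cells. Slc18a3 was at 2.69, 6.28 and 3.66 CPM in RVO, 8.58, 9.53 and 10.2 CPM in control and 2.91, 3.96 and 4.72 CPM in untreated pools. Slc32a1 was at 38.7, 73.6 and 44.5 CPM in RVO, 92.6, 90.1 and 99.3 CPM in control and 49.1, 48.8 and 56.4 CPM in untreated pools. Control was the highest group in both genes, and RVO replicate 2 was above all untreated pools in both. Slc18a3 overlaps Chat on the same strand. Chat, which encodes the acetylcholine-synthesizing enzyme and is not among the 100 genes, was at 10.8, 9.95 and 11.9 CPM in control and 10.4, 9.25 and 11.6 CPM in untreated pools (log2 difference of -0.11 ± 0.12, SE, edgeR adjusted p = 0.443).

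Other genes of this group encode synaptic and membrane proteins. Hrh3, a histamine receptor, was at 7.86, 17.5 and 11.7 CPM in RVO, 29.8, 25.5 and 27.8 CPM in control and 12.8, 13.6 and 13.8 CPM in untreated pools. Ly6h, a modulator of nicotinic receptors, was at 7.28, 22.9 and 12.9 CPM, 26.9, 32.1 and 28.2 CPM and 12.5, 11.9 and 13.8 CPM in these groups. Fxyd7, a regulator of the sodium pump in brain, was at 3.55, 8.29 and 4.09 CPM, 11.98, 12.8 and 11.7 CPM and 3.72, 4.66 and 5.31 CPM. In all 3 genes only the control group was separated from the others. Syt2, a calcium sensor of transmitter release, was at 9.83, 35.8 and 16.3 CPM in RVO, 60.9, 62.3 and 55.2 CPM in control and 30.5, 35.04 and 32.99 CPM in untreated pools. The others included the synaptic organizers Nrxn2 and C1ql2, the scaffold gene Dlgap3, the active-zone gene Rims4, the zinc transporter gene Slc30a3, the channel genes Asic4 and Cacna1i and the neuronal tubulin gene Tubb3, with folds of control over untreated between 1.77 and 2.46. The lowest fold over untreated in the group was 1.70.

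Most of the usual markers of these neurons had another course between control and untreated. In the lists of 12 bipolar and 11 amacrine markers, 2 genes each rose in control over untreated and 6 each fell (edgeR, adjusted p under 0.01), compared with 27.2% higher and 25.2% lower of all genes tested. Gng13 was 1 of the 2 bipolar markers that rose, and Slc18a3 and Slc32a1 were the 2 amacrine markers. In RVO relative to untreated, 10 of the 12 bipolar and 9 of the 11 amacrine markers fell, compared with 24.6% of all genes tested. Grm6, the glutamate receptor of ON bipolar cells, was at 16.6, 58.0 and 28.1 CPM in RVO, 126, 105 and 130 CPM in control and 103, 104 and 98.6 CPM in untreated pools, with RVO replicate 2 again the highest of RVO. The ordering of the RVO pools was thus seen in Grm6 as in the neuronal genes above, whereas the log2 difference of Grm6 between control and untreated was 0.07 ± 0.08 (SE, edgeR adjusted p = 0.459).

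**Figure D3:**
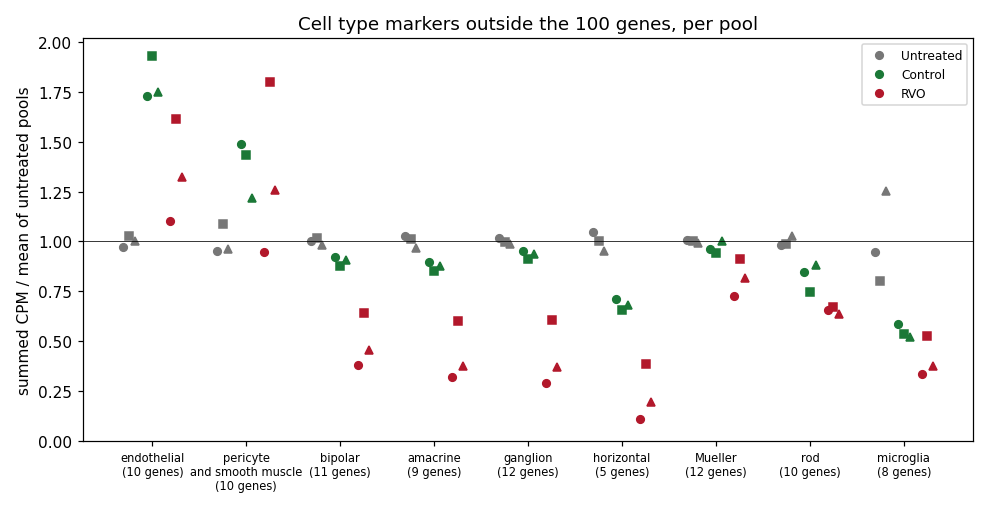
Summed CPM of cell type markers outside the 100 genes in each pool, divided by the mean of the 3 untreated pools (y axis), with replicates 1, 2 and 3 as circle, square and triangle. Endothelial markers are between 1.73 and 1.93 in control pools, whereas bipolar, amacrine, ganglion and horizontal markers are below all untreated pools in RVO and highest within RVO in replicate 2. The endothelial sum is 435 to 486 CPM in control pools, of which Kdr, at rank 113 by score, makes up 247 to 277 CPM.

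Genes of glia and the Notch pathway were 5 of the 100, and control pools were above all others in each. Mlc1, a membrane protein of astrocytes and Mueller cells, was at 35.01, 102 and 48.7 CPM in RVO, 163, 175 and 179 CPM in control and 74.00, 79.3 and 90.4 CPM in untreated pools. RVO replicates 1 and 3 were below all untreated pools, and RVO replicate 2 was above them. Hes5, a transcriptional target of Notch signalling, was at 1.76, 3.52 and 2.05 CPM in RVO, 6.25, 4.92 and 5.47 CPM in control and 1.05, 1.27 and 2.36 CPM in untreated pools. Gpr37l1, a receptor of glial cells, was at 1.03, 2.63 and 1.47 CPM in RVO, 4.29, 3.704 and 3.59 CPM in control and 0.566, 0.636 and 0.918 CPM in untreated pools, without overlap of RVO and untreated. Mfng, a glycosyltransferase that modifies Notch receptors, was 2.03-fold and Fxyd1, a regulator of the sodium pump, 2.77-fold higher in control than in untreated pools. None of 12 Mueller cell markers was among the 100 genes. In control over untreated 4 of them rose and 5 fell (edgeR, adjusted p under 0.01), compared with 27.2% and 25.2% of all genes tested. In a list of 15 Notch and proneural genes Hes5 was the only 1 of the 100. Of the 12 others that could be tested, 4 rose and 3 fell in control over untreated, near the same shares of all genes. In RVO compared with control 2 rose (Notch1 and Neurog2) and 1 fell, compared with 2.7% and 0.634% of all genes tested.

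Genes of the extracellular matrix were 4 of the 100 (Col27a1, Hmcn2, Papln and Sspo), with control above all other pools in each. Col27a1, a fibrillar collagen gene, was at 7.86, 19.4 and 10.04 CPM in RVO, 37.2, 29.1 and 33.6 CPM in control and 12.6, 16.04 and 13.1 CPM in untreated pools. RVO and untreated overlapped in all 4 genes (25.7% of the genes kept), which the choice of genes favours. The median ratio of RVO to untreated was 0.905.

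The immune and platelet genes Iigp1, Gm12185, Cfi and Gp1bb were less uniform. Iigp1, an interferon-inducible GTPase, was at 2.69, 3.96 and 3.38 CPM in RVO, 2.15, 7.88 and 8.03 CPM in control and 0.242, 0.283 and 0.656 CPM in untreated pools. Control replicate 1 was below all RVO pools, and all laser-treated pools were above all untreated pools. Gm12185 had 45, 33 and 65 counts in RVO, 36, 85 and 167 in control and 0, 1 and 1 in untreated pools, with control replicate 1 again the lowest of its group. It overlaps Tgtp1 and other genes on the same strand, and its counts are uncertain. Cfi, the protease that inactivates complement components, was at 1.21, 3.74 and 3.19 CPM in RVO, 3.73, 7.57 and 5.59 CPM in control and 0.97, 1.34 and 0.984 CPM in untreated pools, with control replicate 1 below RVO replicate 2. Gp1bb, a chain of the platelet receptor for Vwf that overlaps Sept5 on the same strand, was at 2.79, 5.66 and 4.42 CPM in RVO, 7.51, 9.68 and 9.05 CPM in control and 4.52, 3.603 and 5.12 CPM in untreated pools, and was the only 1 of these 4 with separated control pools. Lists of genes with like roles had medians above 0 in RVO compared with control. None of 16 interferon response genes was among the 100. Of these, 15 of the 15 tested rose in control and 15 of 16 in RVO over untreated, compared with 27.2% and 27.4% of all genes. Their summed level was 543, 927 and 941 CPM in control replicates 1 to 3, with replicate 1 the lowest as for Iigp1 and Gm12185. Their median log2 difference of RVO to control was 0.51, with 0 of 16 called by edgeR or DESeq2. At an unadjusted p under 0.05, 1 was lower and 4 higher (edgeR). The other 13 complement genes had a median of 0.46 with 2 called higher, and the other 4 platelet genes tested a median of 1.02 with 1 called higher, compared with 2.7% of all genes.

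The remaining 48 genes had other or no assigned roles, and control was above all others in 44 of them. Their median folds were 2.27 over untreated and 2.07 over RVO. Rnf112, a brain protein with a RING finger, was at 7.17, 15.9 and 9.28 CPM in RVO, 26.3, 24.2 and 24.7 CPM in control and 10.9, 12.3 and 11.3 CPM in untreated pools. Rasl10b, a small GTPase, was at 46.7, 89.3 and 57.8 CPM in RVO, 127, 128 and 132 CPM in control and 46.2, 53.1 and 61.4 CPM in untreated pools. Both had tight control groups well above the others. Krt1, a keratin of surface epithelia, was at 6.02, 7.25 and 5.42 CPM in control and between 1.55 and 4.81 CPM in RVO, and Tmem252 at 3.87, 4.87 and 2.78 CPM in control and between 0.90 and 2.54 CPM in RVO. Siah3 was at 1.104, 2.67 and 1.62 CPM in RVO, 5.74, 5.87 and 5.00 CPM in control and 2.42, 2.33 and 2.95 CPM in untreated pools. Prrt3 was 2.11-fold higher in control than in untreated pools and 2.04-fold higher than in RVO. Gm694, C330024D21Rik, Gm3898, AU021092 and Cyyr1 also ranked among the first 30, at mean control levels of at most 3.25 CPM.

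Within RVO, the pools differed in a uniform way across the 100 genes. RVO replicate 2 was the highest RVO pool in 96 of the 100 genes, compared with 37.8% of the genes kept. Replicate 1 was the lowest in 87, for which the share of the genes kept was not counted. The median log2 level of the 100 genes relative to the control mean was -1.34, -0.52 and -1.07 in RVO replicates 1 to 3, between -0.02 and 0.02 in control and -1.18, -1.01 and -0.90 in untreated pools. Across all genes kept, this median was between 0.02 and 0.08 in RVO and between -0.21 and -0.16 in untreated pools. RVO replicate 2 was below all control pools in 92 of the 100 genes (33.0% of the genes kept), which the choice of genes favours, and above all untreated pools in 88 (54.9% of the genes kept), at a median of 41.5% of the way from the untreated to the control mean. In RVO replicates 1 and 3 the median ratio to untreated was 0.872 and both were above all untreated pools in 11 of the 100 genes (52.1% of the genes kept) and below all of them in 30 (31.5% of the genes kept). With all 3 RVO pools, the median ratio to untreated was 1.06 and RVO overlapped with untreated in 87 of the 100 genes, compared with 25.7% of the genes kept. As the score asks for low levels in both of these groups, the choice of genes favours such an overlap.

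**Figure D4:**
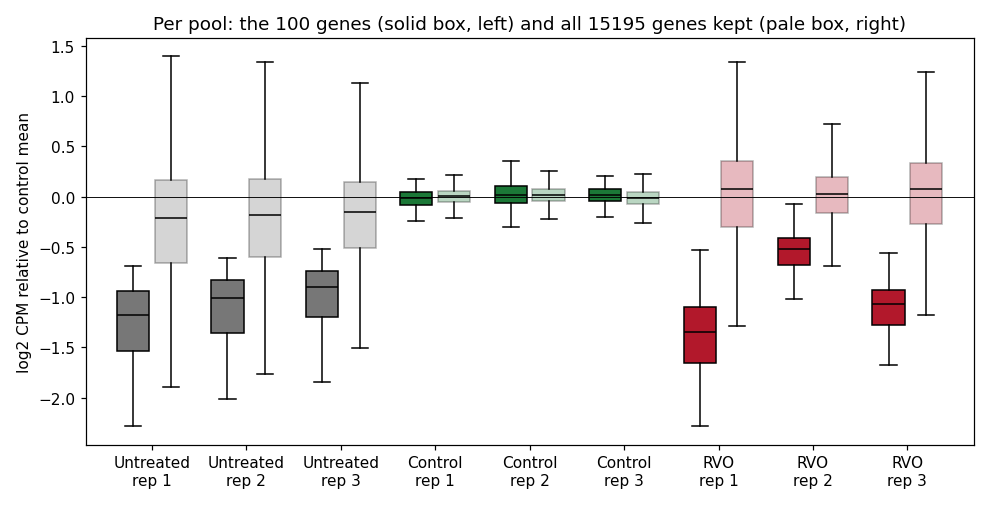
Log2 CPM relative to the control mean (y axis) in each of the 9 pools, for the 100 genes (solid boxes) and all 15195 genes kept (pale boxes), with boxes for quartiles, a line for the median and whiskers up to 1.5 times the box height. The 100 genes have medians of -1.34, -0.52 and -1.07 in RVO replicates 1 to 3 and between -1.18 and -0.90 in untreated pools.

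In the fits across all genes with edgeR, 97 of the 100 genes were called higher in control than in untreated pools, compared with 27.2% of 16066 genes tested. In RVO compared with control, 5 were called lower (Serpine3, Sox17, Gm15872, Stk32c and E130218I03Rik), compared with 0.634% of 16874 genes, 0 were called higher, compared with 2.7%, and 97 were lower at an unadjusted p under 0.05. DESeq2 called 78 of the 100 lower, compared with 12.7% of its genes, and edgeR without RVO replicate 2 called 94, compared with 19.3%. When any other single RVO or control pool was left out, and with the replicate number as a block, edgeR called 0. Of the 100 genes, 82 to 99 were then lower at an unadjusted p under 0.05. These fits called at most 29 of all genes tested (29 of 17149 without RVO replicate 1), so that the 0 was not particular to the 100 genes. The genes were chosen by these contrasts. In RVO compared with untreated, 97 of the 100 could be tested. Vwf, Tie1, Iigp1 and Gm12185 were called higher, by 1.71 ± 0.40, 1.03 ± 0.23, 2.82 ± 0.37 and 5.02 ± 0.68 (log2, SE), compared with 27.4% of 16380 genes. None was called lower by edgeR or DESeq2, compared with 24.6% of genes with edgeR, and 3 were lower at an unadjusted p under 0.05. Without RVO replicate 2, however, 34 were called lower, compared with 31.0% of genes.

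The 100 genes were rich in G and C. The GC content of the longest transcript had a median of 57.8% compared with 49.75% of the genes kept, and 67 of the 100 genes were in the quintile of highest GC content. This went along with a trend across all genes. From the lowest to the highest quintile, the median log2 ratio of control to untreated rose from -0.27 to 0.67 and that of RVO to untreated from -0.28 to 0.71, whereas the ratio of control to RVO stayed between -0.09 and 0.00. When the trends with GC content and length were removed from each pool, the median log2 ratio of control to untreated of the 100 genes was 0.47 instead of 1.04, and that of control to RVO 0.99 instead of 0.96. After this step 94 of the 100 genes had a higher mean in control than in untreated (49.4% of the genes kept). All control values were above all others in 69 (4.29% of the genes kept). These shares and those below are of the 15028 genes kept with known GC content. The choice of genes in these same pools favours both counts. Of the 100 genes, 41 stayed among the 100 highest scores. The median log2 ratio of RVO to untreated moved from 0.03 to -0.63. RVO was then below untreated without overlap in 48 of the 100 genes (35.1% of the genes kept), 20 of the 27 neuronal genes among them, and above in 4 (35.2% of the genes kept). The size of the raise in control over untreated and the likeness of RVO to untreated thus depended on this step.

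The groups by role differed in this respect. For the 12 vessel genes the median log2 ratio of control to untreated was 1.55 before and 1.12 after removal of the trends, and 9 of them stayed among the 100 highest scores. For the 27 neuronal genes it was 0.96 before and 0.27 after, and 3 stayed. Of the 5 glial and Notch genes 4 stayed, of the 4 matrix genes 1, of the 4 immune and platelet genes 3 and of the other 48 genes 21. Median GC content was 53.1% in the vessel genes and 60.0% in the neuronal genes. The part of GC content in the differences between laser-treated and untreated pools was not tested beyond this.

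**Figure D5:**
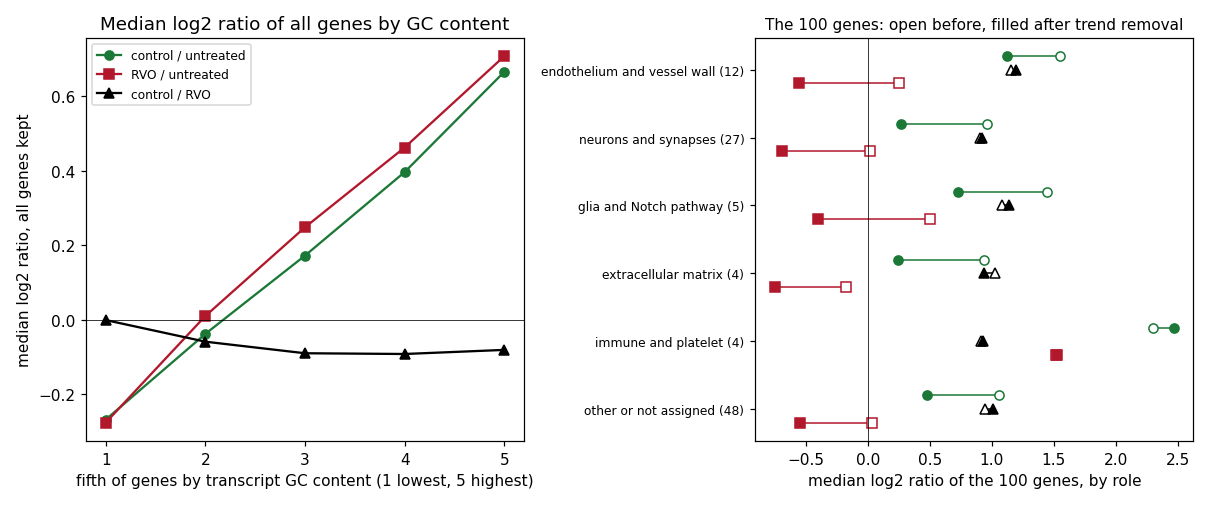
Left, median log2 ratio (y axis) of all genes kept by quintile of transcript GC content (x axis), for control to untreated (circles), RVO to untreated (squares) and control to RVO (triangles). Right, median log2 ratios of the 100 genes by role, before (open) and after (filled) removal of GC content and length trends in each pool, where the control to untreated ratio of neuronal genes moves from 0.96 to 0.27 and that of vessel genes from 1.55 to 1.12.

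The median gene span of the 100 genes was 12434 bases compared with 23282 of the genes kept, and 94 were protein coding, close to the 91.6% of the genes kept. Their mean control levels ranged from 1.204 to 263.7 CPM with a median of 13.8 CPM, compared with 25.4 CPM of the genes kept. Of the 100 genes 32 overlap a gene on the other strand and 16 a gene on the same strand, so that their counts may hold reads of a neighbour.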

How the data were processed

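RNA of 9 retina pools (3 RVO, 3 control and 3 untreated, grouped by their labels) was sequenced from stranded poly-A libraries. The authors aligned reads with STAR 2.5.2b to the mouse genome (GRCm38, Gencode vM11), counted reads per gene with featureCounts of Subread 1.5.1, and deposited raw counts per gene without normalization. The strand setting and the handling of reads that match several genes were not given in the sources used here. The table listed 48679 names, of which 92 were spike-in controls with 0 counts.

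Counts were converted to CPM, and the 100 genes were chosen as described above. The genes, lists and roles were chosen with earlier results of these data known. Genes were named if they were among the 30 highest scores, in a marker list or next to the limit. Others were named as examples of their role after their values were seen. For each of 3 pairs of groups, genes were filtered with filterByExpr, libraries were scaled by TMM factors and the quasi-likelihood test of edgeR 4.0.16 (R 4.3.3) was applied. Benjamini-Hochberg adjusted p-values under 0.01 were called. These p-values measure the spread between pools. TMM factors were 1.05 to 1.07 in control and 0.926 to 0.954 in untreated pools, so that the median log2 level of untreated relative to control pools, -0.21 to -0.16 in CPM, was shifted to a median difference of 0.01 between both groups. DESeq2 1.42.0 was an alternative. Other alternatives were another pseudocount, other count minimums, other scalings, no filter, a fit of all 9 pools, the replicate number as a block and leaving out each pool.

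Coordinates, lengths and GC content came from GENCODE vM21 on the same build, which held all 100 genes and 15028 of the 15195 genes kept. GC content and length trends were removed by subtracting, in each pool, the median deviation within 20 bins of each.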

Additional observations from a re-analysis of the deposited data

How the results depend on the processing

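Of the 100 genes, 52 stayed among the highest 100 when the lowest control value was set against the highest other value, and 41 when GC content and length trends were removed, an alternative chosen after seeing the data. When single pools were left out, 66 (without RVO replicate 2) to 93 stayed. With a pseudocount of 0.1 or 2 CPM 80 and 72 stayed, and with TMM-scaled libraries 78. Control pools were above all others in 91 to 98 genes when single pools were left out, and in 69 after removal of the trends. The choice of genes favours these counts.

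The counts of genes called changed with the fit. For control compared with untreated, a fit of all 9 pools called 58 instead of 97, and leaving out single pools gave 85 to 94. The fit of all 9 pools called 6400 of 17112 genes in either direction, compared with 8416 of 16066. For RVO compared with control, 5 were called, but 83 at an adjusted p under 0.05 and 78 with DESeq2, compared with 17.1% and 12.7% of all genes. Without a filter on low counts 78 were called, in a fit of all 9 pools 75 and with library sizes only 9. In either direction these 3 fits called 3309 of 29742, 3853 of 17112 and 892 of 16874 genes. Leaving out single pools gave 0 to 94, namely 94 without RVO replicate 2 (19.3% of all genes) and 0 when any other single RVO or control pool was left out. In the latter fits at most 29 of all genes tested were called. For RVO compared with untreated, 4 were called higher, 7 without a filter and 2 to 8 when single pools were left out (8 without RVO replicate 1, 2 without RVO replicate 3 or any untreated pool). None was called lower, but 1 at an adjusted p under 0.05 and 0 to 34 when single pools were left out, with 34 without RVO replicate 2. The causes were not tested. For 34 of the genes named, 15 alternatives were followed over the 3 pairs of groups together. Log2 differences of control to untreated and of RVO to control changed sign in 0 of 408 cases each, which the choice of genes by these contrasts favours. Those of RVO to untreated changed sign in 38 of 405 cases, none of them for a gene called in this comparison by the edgeR fit used above. Whether the values of changed sign passed the threshold was not tested.

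RVO and control pools held fellow eyes of the same mice, but nothing showed that pools of the same number matched. Correlations of RVO and control pools of the same number were -0.19, -0.19 and 0.11. Each RVO pool correlated better with a control pool of another number. With the replicate block 0 of the 100 genes were called lower in RVO than in control, as were 0 of all 16874 genes tested. This fit called 98 higher in control than in untreated, while against untreated pools RVO had 5 genes called up and 1 called down.

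The shallower untreated pools limit the folds of genes with few counts there.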
